A study of Mus musculus with 6 samples.

Results

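The immediate early genes *Fos*, *Fosb*, *Jun*, *Junb*, *Egr1*, *Atf3*, *Nr4a1*, *Dusp1*, *Ier2* and *Zfp36* were examined in the cochlea of *Cmah*-null mice and their WT controls. All probes whose gene symbol in the deposited table equals one of these names were taken, which gave 10 probes, 1 for each of the 10 genes, of 25697 probes in all. *Cmah* encodes the hydroxylase that turns the sialic acid Neu5Ac into Neu5Gc, and the *Cmah*-null line is a whole-animal knock-out, so every cell of these mice carried it and not only those of the ear. RNA of 3 WT and 3 *Cmah*-null samples was hybridized to Illumina MouseRef-8 v2 BeadChips, 1 array per sample. Both groups were 12 months old and of the C57BL/6 strain (C57BL/6J in the methods), and no treatment is named for either. The column headers name the second group old rather than *Cmah*-null. They were matched to the *Cmah*-null samples by replicate number and because the other 3 columns are named WT, and each direction below rests on that match. The labels number the samples as replicates and do not tie each to an animal, while the methods speak of 3 mice per group. If samples shared an animal, p-values would measure only a technical spread between them. Cmah-null replicates 1 and 2 were the closest pair, and with these averaged into 1 sample 4 members were called instead of 3 by the rule given below, and the smallest adjusted p of a member by limma was 0.772 instead of 0.397.

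Immediate early genes are transcribed within minutes of a stimulus such as a growth factor, calcium entry, stress or tissue handling, from factors already present in the cell. Kinases of the MAPK pathways activate serum response factor with its partners, which bind CArG boxes, and CREB, which binds cAMP response elements (CRE), in the promoters of these genes. Many of the products are transcription factors of the AP-1, EGR and NR4A families, and others, such as *Dusp1* and *Zfp36*, shut the signal or the transcripts down again, so that the rise is usually brief.

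The bases before the gene start are shown for *Fos*, *Fosb*, *Junb* and *Zfp36*, the 4 genes whose values did not overlap between the genotypes. The sequences are from RefSeq (GRCm38.p6), 250 bases each, written 5′ to 3′ toward the gene. They lie at chr12:85473640-85473889 (+ strand) for *Fos*, chr7:19310046-19310295 (- strand) for *Fosb*, chr8:84978749-84978998 (- strand) for *Junb* and chr7:28379229-28379478 (- strand) for *Zfp36*. Capitals mark the letters of a motif searched on both strands.
Fos: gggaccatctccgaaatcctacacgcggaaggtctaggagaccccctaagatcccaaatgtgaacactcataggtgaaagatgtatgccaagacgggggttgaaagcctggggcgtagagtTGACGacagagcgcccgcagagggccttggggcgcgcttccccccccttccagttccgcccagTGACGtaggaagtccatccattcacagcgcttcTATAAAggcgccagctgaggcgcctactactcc
Fosb: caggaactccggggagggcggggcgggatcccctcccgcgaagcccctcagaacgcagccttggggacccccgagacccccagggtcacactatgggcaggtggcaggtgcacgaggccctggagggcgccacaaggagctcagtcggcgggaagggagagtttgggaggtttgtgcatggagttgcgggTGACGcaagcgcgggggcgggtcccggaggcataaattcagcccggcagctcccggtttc
Junb: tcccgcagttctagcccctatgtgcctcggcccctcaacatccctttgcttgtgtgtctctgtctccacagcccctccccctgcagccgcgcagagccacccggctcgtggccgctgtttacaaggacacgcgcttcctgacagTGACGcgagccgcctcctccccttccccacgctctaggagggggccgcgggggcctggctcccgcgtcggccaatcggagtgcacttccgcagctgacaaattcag
Zfp36: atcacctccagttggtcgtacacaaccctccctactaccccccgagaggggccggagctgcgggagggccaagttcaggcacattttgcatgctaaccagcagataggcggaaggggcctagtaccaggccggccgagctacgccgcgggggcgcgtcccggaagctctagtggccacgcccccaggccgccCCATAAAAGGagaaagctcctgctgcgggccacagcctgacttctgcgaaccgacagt

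The *Fos* stretch held the CRE core TGACG at 129 to 125 and at 66 to 62 bases before the gene start and a TATA box, TATAAA, at 33 to 28. *Fosb* held 1 CRE core at 60 to 56 bases and *Junb* 1 at 106 to 102 bases. *Zfp36* held no CRE core, and a CArG box, CCATAAAAGG, at 58 to 49 bases. In the 8 members that the promoter table holds (*Egr1* and *Ier2* are missing from it), a CRE core or its other strand, CGTCA, was found in 6 (*Fos*, *Fosb*, *Junb*, *Atf3*, *Nr4a1* and *Dusp1*), against 17.8% of 32851 promoters. The whole CRE, TGACGTCA, which contains the core, was found only in *Dusp1* (1.55% of all promoters), the CArG box only in *Zfp36* (1.47%), TATAAA only in *Fos* (12.4%), and the AP-1 site TGANTCA in 0 of the 8 (6.75%). These matches describe letters within a short window and not bound sites.

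A few facts of the whole set bear on the members. Cmah-null replicate 3 stood apart from the other arrays. Over the probes of the array, its log2 differences from the other 5 had SDs of 0.562 to 0.636, while Cmah-null replicates 1 and 2 differed from each other with an SD of 0.126 and the other pairs with 0.307 to 0.439. The same array had the fewest probes with a detection p under 0.05, 13873, against 14312 to 15223 on the other arrays. Each member's difference is therefore also given without it. The *Cmah* probe was detected on 1 WT and 2 *Cmah*-null arrays, near the detection limit in both groups (log2 signal 7.47 ± 0.34 and 7.73 ± 0.40, SD, n = 3), and cannot check the genotype. 

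Of the 10 members, *Fos*, *Fosb* and *Zfp36* were at least 1.5-fold higher in *Cmah*-null tissue with an unadjusted p under 0.05 (limma), while 1.3% of all probes (334 of 25697) were. No member was called lower by that rule, against 1.41% of all probes. Per the annotation in the table, the probes lie in bands 12qD2 (*Fos*), 7qA3 (*Fosb* and *Zfp36*), 8qC3 (*Junb* and *Ier2*), 4qC5 (*Jun*), 1qH6 (*Atf3*), 15qF2 (*Nr4a1*), 17qA3.3 (*Dusp1*) and 18qB1 (*Egr1*). Among the 8 members detected on all 6 arrays the 3 calls stand beside 2.51% of the probes so detected. At an adjusted p under 0.05, limma called 0 of the 10 members and 0 of all probes (0.0%), although 3 of the 10 members and 2199 of all probes had an unadjusted p under 0.05. An ordinary test per probe also gave 0 members at an adjusted p under 0.05. The smallest adjusted p of a member was 0.397. In *Fos*, *Fosb*, *Junb* and *Zfp36*, every *Cmah*-null array was above every WT array, which held for 9.11% of all probes. The median log2 difference of the members, *Cmah*-null minus WT, was 0.50, with 9 values above 0 and 1 below, beside a median of 0.00 over all probes, of which 50.5% were above 0. For the 8 members detected on all arrays the median was 0.69, with 8 values above 0. Over all probes so detected it was 0.03, with 53.1% above 0.

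**Figure D1:**
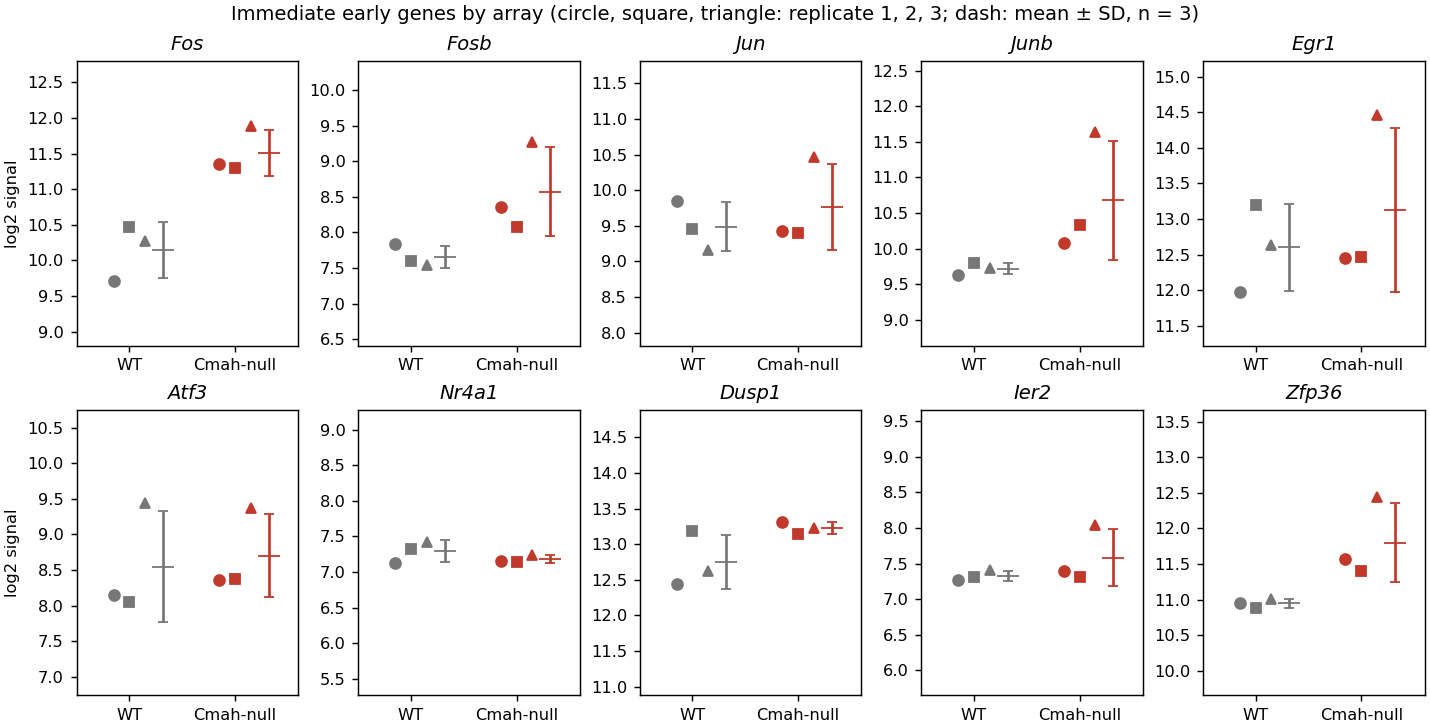
Log2 normalized signal (vertical axis, with the same span in every panel) of each immediate early gene on 3 WT and 3 Cmah-null arrays. Circles, squares and triangles are replicates 1, 2 and 3, and dashes with bars are the mean ± SD. The groups are apart in Fos, Fosb, Junb and Zfp36, and the triangle of Cmah-null is the highest point in 7 of the 10 genes.

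*Fos*, the AP-1 subunit that pairs with Jun proteins, gave the largest difference of the 10 members. On the log2 scale its signal in WT was 9.71, 10.47 and 10.28, against 11.35, 11.30 and 11.89 in *Cmah*-null tissue. All 3 *Cmah*-null arrays were above all WT arrays, with 0.84 between the nearest arrays of the groups, and WT replicate 1 was the lowest. The WT mean was 10.15 ± 0.39 and the *Cmah*-null mean 11.51 ± 0.32 (SD, n = 3). The log2 difference was 1.36 (SE 0.25, 95% interval 0.74 to 1.98), a 2.57-fold higher signal, with an unadjusted p of 0.0018 and an adjusted p of 0.397 by limma. Without Cmah-null replicate 3 the log2 difference was 1.18 (SE 0.23) with a limma adjusted p of 0.173. Its mean signal was above that of 87.9% of the probes on the array.

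*Fosb* encodes a further Fos family subunit, known from its stable form ΔFosB, which builds up under repeated stimulation. The 3 WT arrays gave log2 signals of 7.83, 7.60 and 7.54, and those of *Cmah*-null tissue 8.36, 8.07 and 9.28. The groups did not overlap, with 0.24 between the nearest arrays, and Cmah-null replicate 3 lay well above replicates 1 and 2. The means were 7.65 ± 0.16 and 8.57 ± 0.63 (SD, n = 3), and the log2 difference was 0.92 (SE 0.32, 95% interval 0.14 to 1.69) with a limma adjusted p of 0.549. That is a 1.89-fold higher signal, and the log2 difference without Cmah-null replicate 3 was 0.56. The WT signals were near the detection limit, with detection p-values of 0.0226 and 0.0313 on WT replicates 2 and 3. The size of the difference therefore depends on how the background is treated, and neqc normalization gave a log2 difference of 1.78.

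*Jun* encodes the AP-1 subunit that can pair with itself or with a Fos protein. Its log2 signal was 9.85, 9.45 and 9.16 in WT, beside 9.43, 9.40 and 10.47 in *Cmah*-null tissue. The groups overlapped, since Cmah-null replicates 1 and 2 lay inside the WT range and only replicate 3 above it. The log2 difference was 0.28 (SE 0.34, 95% interval -0.56 to 1.12, limma adjusted p = 0.841), and without Cmah-null replicate 3 it was -0.07.

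*Junb*, a Jun family subunit that activates AP-1 targets less than Jun does, had log2 signals of 9.63, 9.79 and 9.72 in WT, beside 10.08, 10.33 and 11.63 in *Cmah*-null tissue. The WT arrays lay close together (SD 0.08) and all *Cmah*-null arrays above them, the nearest by 0.28. The means were 9.72 and 10.68, and the log2 difference was 0.96 (SE 0.41), a 1.95-fold higher signal whose 95% interval, -0.04 to 1.97, included 0. The limma adjusted p was 0.596. Without Cmah-null replicate 3 the log2 difference was 0.49.

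*Atf3*, a stress-induced member of the ATF/CREB family that also pairs with Jun proteins, gave a different order of the arrays. The log2 signal of *Atf3* was 8.15, 8.05 and 9.44 in WT, against 8.36, 8.37 and 9.37 in *Cmah*-null tissue. Replicate 3 of both genotypes was high, and the WT one was the highest of all 6. Between the genotypes the log2 difference was 0.15 (SE 0.47, limma adjusted p = 0.944), with a 95% interval that included 0 and reached 1.31, and it was -0.18 without Cmah-null replicate 3.

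*Egr1*, a zinc finger transcription factor and a classical target of serum response factor, was among the brightest members, above 97.6% of the probes. In WT its log2 signal was 11.97, 13.20 and 12.63, and in *Cmah*-null tissue 12.45, 12.47 and 14.46. Cmah-null replicates 1 and 2 lay inside the WT range, and replicate 3 stood 2.00 above their mean, the widest such gap of the 10 members. *Egr1* had a log2 difference of 0.53 (SE 0.63, 95% interval -1.02 to 2.08, limma adjusted p = 0.838) with all arrays and -0.14 without Cmah-null replicate 3.

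*Nr4a1*, an orphan nuclear receptor, was detected on 0 of the 6 arrays. Its log2 signal of 7.12 to 7.42 in WT and 7.14 to 7.25 in *Cmah*-null tissue therefore gives no level, and the log2 difference of -0.11 (SE 0.10), or -0.14 without Cmah-null replicate 3, is one of background signals. *Ier2*, a small nuclear protein of the early response, was detected only on Cmah-null replicate 3, where its log2 signal was 8.05, beside 7.40 and 7.31 for replicates 1 and 2 and 7.26, 7.31 and 7.41 in WT. For *Ier2* the log2 difference was 0.26 (SE 0.21, 95% interval -0.25 to 0.76, limma adjusted p = 0.751), and 0.03 without that array.

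Both genes known to end the response were bright. *Zfp36* encodes tristetraprolin, which binds AU-rich mRNAs and speeds their decay. The 3 log2 signals were 10.95, 10.89 and 11.01 in WT, against 11.57, 11.40 and 12.44 in *Cmah*-null tissue. All *Cmah*-null arrays were above all WT arrays, the nearest by 0.39, and the WT values were the closest together of the 10 members (SD 0.06). The means were 10.95 and 11.80 ± 0.56 (SD, n = 3), and the log2 difference was 0.85 (SE 0.27, 95% interval 0.17 to 1.53), a 1.80-fold higher signal, with a limma adjusted p of 0.529. Without Cmah-null replicate 3 the log2 difference was 0.53 (SE 0.09).

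*Dusp1*, a nuclear phosphatase that takes the phosphate groups off MAP kinases, was the brightest member, above 97.9% of the probes. Its log2 signal was 12.45, 13.18 and 12.62 in WT, against 13.32, 13.14 and 13.23 in *Cmah*-null tissue. WT replicate 2 lay within the *Cmah*-null range and the other WT arrays below it, so the groups overlapped. The log2 difference was 0.48 (SE 0.20, 95% interval -0.01 to 0.97, limma adjusted p = 0.593), and it was also 0.48 without Cmah-null replicate 3, the only member besides *Nr4a1* in which that array did not exceed the mean of replicates 1 and 2 by more than 0.10. That likeness holds for the normalized values. In raw signals, not scaled between arrays, *Dusp1* was lowest of the *Cmah*-null arrays on replicate 3, at 8971.9 beside 14768 and 11685.

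**Figure D2:**
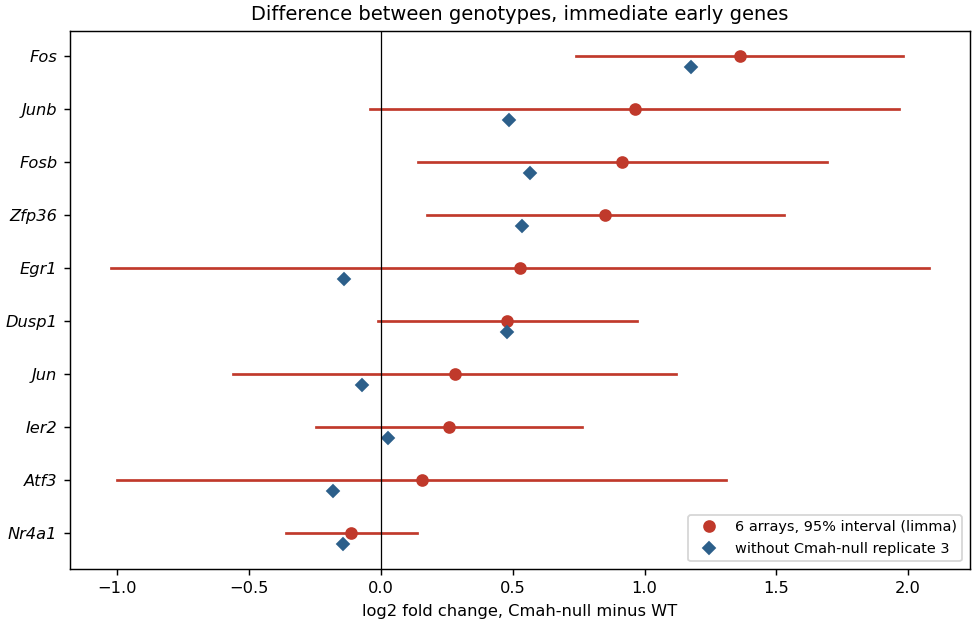
Log2 fold change, Cmah-null minus WT (horizontal axis), of the 10 immediate early genes. Red points with bars are the limma values from 6 arrays with 95% intervals and blue diamonds are the values without Cmah-null replicate 3. The intervals of Fos, Fosb and Zfp36 lie above 0, and Egr1, Jun and Atf3 pass from above to below 0 without that array.

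Across the members, Cmah-null replicate 3 had the highest normalized signal of the 6 arrays for 7 of 10 (*Fos*, *Fosb*, *Jun*, *Junb*, *Egr1*, *Ier2* and *Zfp36*). In raw signals, not scaled between arrays, *Fos* was instead highest on Cmah-null replicate 1, with 3817.7, 3357.0 and 3498.5 on replicates 1 to 3. The other genes named were highest on replicate 3 in raw signal too. Of the 8 members detected on all arrays, replicate 3 had the highest normalized signal for 6, while it was the highest for 36.6% of all probes so detected. The median over the members of the log2 signal minus the WT mean was -0.13, 0.01 and 0.05 for the WT replicates, against 0.22, 0.19 and 1.23 for those of *Cmah*-null tissue. Both *Cmah*-null arrays other than replicate 3 were thus above the 3 WT arrays by this median, by much less than replicate 3. WT replicate 1 was the lowest of the 6 arrays for 6 of the 10 members, among them *Nr4a1* and *Ier2*, which were not detected on it. Of the 8 members detected on all arrays it was the lowest for 4. The share of all probes lowest on that array was not counted. Without Cmah-null replicate 3 the median log2 difference of the members was 0.25, and *Fos* alone kept a 1.5-fold difference with an unadjusted p under 0.05, against 1.61% of all probes called higher in that fit. *Fosb* (0.56), *Junb* (0.49) and *Zfp36* (0.53) fell short of 1.5-fold there, with unadjusted limma p-values of 0.0079, 0.0055 and 0.0016. The *Cmah*-null spread in that fit rests on replicates 1 and 2 alone, the closest pair of arrays (SD 0.126).

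**Figure D3:**
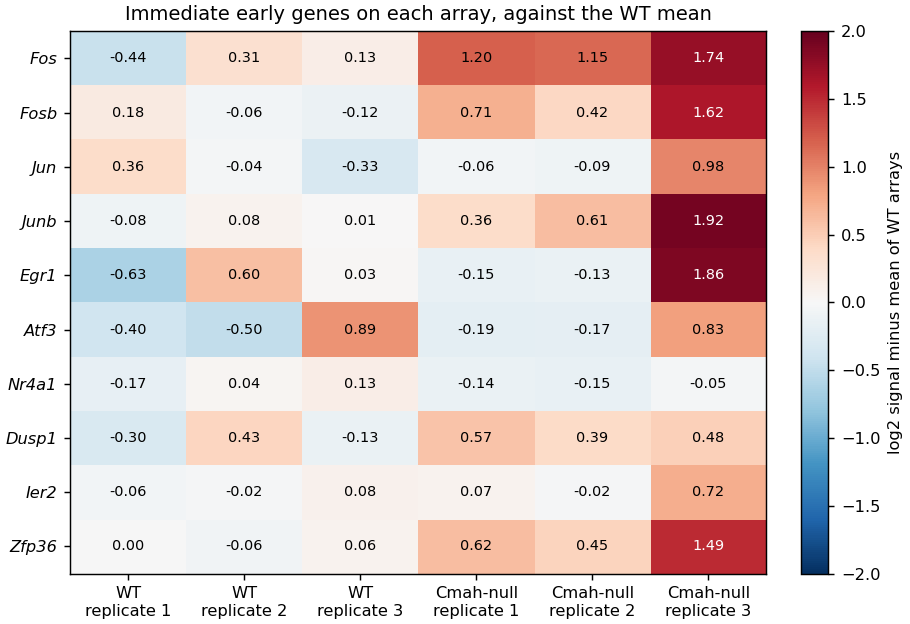
Log2 signal of each immediate early gene minus its mean over the 3 WT arrays (colour and printed value), with genes in rows and the 6 arrays in columns. The column of Cmah-null replicate 3 holds the largest values, up to 1.92 for Junb, while Fos is at 1.15 or more on all 3 Cmah-null arrays.

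Each member's value rested on 24 to 53 beads, and the standard error of its mean over beads, on the log2 scale, was 0.0293 to 0.106, with a median of 0.0507. That error covers the beads of 1 array only. The SDs between arrays of 1 genotype ran from 0.06 (*Nr4a1* in *Cmah*-null tissue and *Zfp36* in WT), about the size of the bead errors, to 1.16 (*Egr1* in *Cmah*-null tissue). The arrays fell into 2 sets by bead number: WT replicate 1 with Cmah-null replicates 1 and 2 (medians of 32 to 34 beads per probe) and WT replicates 2 and 3 with Cmah-null replicate 3 (38 to 39). The files do not say what the sets are. Within both sets the *Cmah*-null mean was above the WT mean for 8 of the 10 members, beside 28.1% of all probes. Of the 8 members detected on all arrays this held for 7, beside 30.4% of the probes so detected. *Fos* differed by 1.62 in the set with fewer beads and by 1.52 in the other on the log2 scale, while *Fosb* differed by 0.39 and 1.71, *Junb* by 0.57 and 1.87, and *Zfp36* by 0.53 and 1.49. *Egr1* differed by 0.49 and 1.55 and *Dusp1* by 0.78 and 0.33. *Jun* was lower in the first set (-0.44) and higher in the other (1.17). Each set holds a single array of 1 genotype, so these differences have no test of their own.

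The wider early response was read from 56 further genes in 5 lists, of which 52 were on the array and 41 were detected on at least 3 arrays. Of the 52, *Socs3* and *Cxcl1* passed 1.5-fold with an unadjusted p under 0.05, 3.85% of the list beside 1.3% of all probes, in the higher direction, and 0 in the lower. Their log2 differences had a median of 0.17, with 43 above 0 and 9 below, and without Cmah-null replicate 3 the median was 0.02 with 29 above 0 and 23 below. All *Cmah*-null arrays were above all WT arrays in 10 of the 52 (*Klf2*, *Csrnp1*, *Cebpb*, *Socs3*, *Trib1*, *Errfi1*, *Gadd45b*, *Sgk1*, *Cxcl1* and *Arc*), 19.2% beside 9.11% of all probes, and below them in 0. *Trib1* was detected on no array.

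*Socs3*, the feedback inhibitor of JAK and STAT signalling, had log2 signals of 8.86 to 9.12 in WT, against 9.85, 9.88 and 10.95 in *Cmah*-null tissue. Its groups did not overlap, with a log2 difference of 1.23 (SE 0.31) and a limma adjusted p of 0.449, and of 0.87 without Cmah-null replicate 3. *Cxcl1*, a chemokine that draws neutrophils, had log2 signals of 7.59, 8.38 and 8.13 in WT and 8.72, 8.61 and 8.58 in *Cmah*-null tissue. Here Cmah-null replicate 3 was not the highest array, and the log2 difference was 0.60 (SE 0.21, limma adjusted p = 0.546).

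In the AP-1 and ATF list, 0 of 4 genes passed the test. The log2 difference was 0.74 (SE 0.44), or 0.27 without Cmah-null replicate 3, for *Jund*, a Jun subunit with a more constant level. For *Maff*, a small Maf protein, it was 0.25 by the brightest probe and -0.10 by its other probe. Among the EGR and NR4A genes 0 of 5 passed, with log2 differences of 0.49 for *Egr4* and 0.41 for *Egr2*, which turned to -0.06 and -0.12 without Cmah-null replicate 3. Of 10 other early transcription factors 0 passed. *Klf2*, a Krüppel-like factor known from endothelium under flow, had a log2 difference of 1.01 (SE 0.50), and *Csrnp1*, a nuclear protein induced by axin, one of 0.92 (SE 0.40). Without that array they were 0.43 and 0.52. Of 22 feedback genes, *Socs3* passed, and *Errfi1*, an inhibitor of the EGF receptor, had a log2 difference of 0.56 (SE 0.13, limma adjusted p = 0.425) with no overlap between the groups. Of 11 secreted and effector genes, *Cxcl1* passed, and *Ctgf*, a matrix-associated growth factor, had a log2 difference of 0.73 (SE 0.51, and 0.32 without Cmah-null replicate 3) with overlapping groups.

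Genes upstream of the response were read in the same way. Of 18 kinases and transcription factors such as MAP kinases, CREB and the partners of serum response factor, 0 passed the test (1.3% of all probes passed it in the higher direction and 1.41% in the lower), 8 log2 differences were above 0 and 10 below, and their median was -0.02. The log2 difference was -0.41 (SE 0.52) for *Mapk8*, which encodes the kinase JNK1. For the brightest probe of *Elk3*, a partner of serum response factor, it was 0.38 (SE 0.49), beside -0.11 and -0.02 for its other probes. The signs of *Mapk8* and of this *Elk3* probe turned without Cmah-null replicate 3, to 0.21 and -0.18. Of 6 heat shock genes 0 passed, and the median was -0.12. The log2 difference was -1.33 (SE 0.85), or -0.47 without that array, for *Hspa8*, the constitutive Hsc70 chaperone, and 0.67 (SE 0.61) for *Hspa1a*, the inducible Hsp70, with overlapping groups in both.

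**Figure D4:**
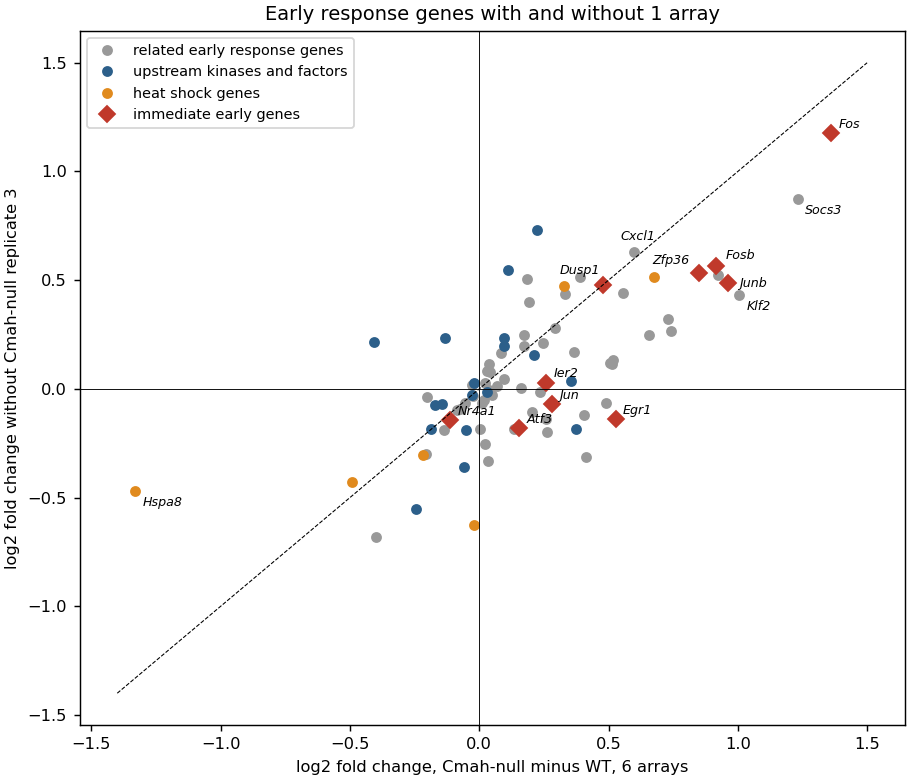
Log2 fold change, Cmah-null minus WT, from 6 arrays (horizontal axis) and without Cmah-null replicate 3 (vertical axis) for the immediate early genes, 52 related early response genes, 18 upstream genes and 6 heat shock genes. Points on the dashed line have the same value in both, and most immediate early genes lie below it while Dusp1 lies on it.

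The tissue was mixed, and markers of other cell types differed between arrays, on Cmah-null replicate 3 and also among the WT arrays. Of the marker sums below, only those of brown fat did not overlap between the genotypes. In whole tissue, fewer cells of a type and less RNA per cell cannot be told apart. All 4 brown fat markers were lower in *Cmah*-null tissue, 3 of them by 1.5-fold with an unadjusted p under 0.05. Of all probes, 1.41% were called lower and 1.3% higher by that rule. The summed linear signal of the brown fat markers was 34000 to 54900 in WT and 6660 to 20200 in *Cmah*-null tissue, lowest on replicate 3. All 6 skeletal muscle markers were lower, 1 of them called, with sums of 109000 to 168000 and 94200 to 130000. All 4 epidermis markers were higher and 0 called, with sums of 28700 to 111000 in WT and 94900 to 107000 in *Cmah*-null tissue. The 6 macrophage markers summed to 29400 to 45600 in WT and 8860 to 51100 in *Cmah*-null tissue, where the lowest value was again that of replicate 3. The brightest of them, *Lyz2*, weighed most in these sums, with log2 signals of 15.42, 15.48 and 12.40 in *Cmah*-null tissue. *C1qa*, *C1qb* and *Cd68* were also lowest of the *Cmah*-null arrays on replicate 3, at 8.43, 9.66 and 9.16. *Csf1r* was instead highest on replicate 3, at 10.25, and *Emr1* was highest there of the *Cmah*-null arrays by a narrow margin. Between the genotypes, 4 macrophage log2 differences were above 0 and 2 below, and 0 genes were called. The 8 neutrophil and marrow markers summed to 90000 to 119000 and 83800 to 102000, the 5 myelin markers to 35200 to 91500 and 38500 to 43200, and the 5 bone markers, of which *Sost* was detected on no array, to 7760 to 58000 and 15900 to 17100. All 5 myelin log2 differences were below 0, with 0 called. On WT replicates 1, 2 and 3 the bone sums were 58000, 47400 and 7760 and the myelin sums 91500, 43900 and 35200. The epidermis sums on these arrays were 28700, 40700 and 111000. The part of these cell types in the values of the immediate early genes was not tested.

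For the labelled tissue, 4 of 8 hair cell markers were detected on all arrays, with sums of 4970 to 6450 in WT and 5200 to 6560 in *Cmah*-null tissue, and the hair cell genes *Pou4f3*, *Slc26a5* and *Atoh1* were detected on no array. The cochlear support and otic matrix markers were detected on all arrays for 5 of 6, with sums of 11600 to 24400 and 19600 to 20500, and *Tectb* on none. The stria markers summed to 15100 to 20400 and 11100 to 21100, the neuron markers to 3800 to 8120 and 3560 to 6010, and the endothelium markers to 2000 to 2990 and 1890 to 2260. Of the neuron markers *Nefl* and *Snap25* were detected on no array, and all 5 log2 differences were below 0, with 0 called. The immediate early genes can be transcribed in any of these cells, and the arrays do not say which of them gave the signal.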

How the data were processed

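Cochlear RNA of 3 WT and 3 *Cmah*-null samples was measured on 1 BeadChip each. The raw table, per the file headers, gives as intensity each probe's mean over its beads, not log-transformed, with bead standard errors, bead numbers and a detection p-value per probe deposited beside it. In the other deposited table are log2 values, found to equal the quantile-normalized log2 raw signals within 5e-07. Background correction, scanner software version and genome build are not given in the sources used here, so only chromosome bands are given for probes. The authors' fold change, LPE statistic and adjusted p columns, and 12 further columns repeating signals and detection p per sample, were not used.

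The log2 values were fitted with lmFit and eBayes of limma 3.58.1 in R 4.3.3 on all 25697 probes, *Cmah*-null against WT without covariates, two-sided, with Benjamini-Hochberg adjustment over all probes. A call needed 1.5-fold and an unadjusted p under 0.05. An exact permutation test of 3 against 3 arrays cannot give a p below 0.1 and was not used. A probe was called detected at a detection p under 0.05, and quantile normalization assumes like distributions on all arrays. The number of arrays limits the precision. The procedure was tested on simulated arrays. Where a listed gene had several probes, the brightest was used.

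The members and lists were chosen with earlier results of these data known. Of 153 listed genes 142 were matched, 138 by symbol and 4 by gene identifier through RefSeq (*Jund*, *Csrnp1*, *Bhlhe40* and *Elane*). Named were all members, for each related list the 2 genes detected on at least 3 arrays with the largest log2 difference, any gene called, genes without overlap where counted, and the 5 symbols most alike. Of the tissue markers, those detected on no array were named, and the macrophage markers to describe their sum. No pairing by replicate number was seen: deviations of same-numbered arrays from their group means correlated at 0.03, -0.18 and 0.02 over 14883 probes. Cmah-null replicates 1 and 2 were nearly alike, and so were their deviations. This check therefore could not show a pairing of either, and pairing was not excluded. The alternatives were other normalizations, filters, variance priors and blocks, and leaving out each array. Averaging Cmah-null replicates 1 and 2, and a block for bead number, were added after seeing the data.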

Additional observations from a re-analysis of the deposited data

How the results depend on the processing

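In every alternative, limma called 0 members at an adjusted p under 0.05. The log2 differences of *Fos* (1.14 to 1.84), *Fosb* (0.56 to 1.78), *Junb* (0.49 to 1.38), *Zfp36* (0.53 to 1.35) and *Dusp1* (0.33 to 0.99) kept their sign in all 14 alternatives. The number of members called, 3, was 5 with a block for bead number, 5 after median scaling, 1 where an ordinary test per probe was used, and 1 to 4 when 1 array was left out: *Fos* alone without Cmah-null replicate 3 or WT replicate 3, *Fos* and *Fosb* without WT replicate 1, and *Fos* and *Dusp1* without WT replicate 2. The share of all probes called higher, 1.3%, also moved. It was 3.33% with the bead-number block, 0.747% with the ordinary test, 3.05% with neqc normalization and 1.56% with the replicate block. When 1 array was left out it ran from 0.743% to 2.0%. *Egr1* was among the 5 of the bead-number block, where the smallest adjusted p of a member was 0.0524, and *Dusp1* among those of median scaling. Median scaling moved the median log2 difference of all probes detected on all arrays to 0.30 and called 9.37% of all probes higher, and the members' median was 0.95 there, against 0.50 (0.25 to 0.76 when 1 array was left out). The replicate block left 3 members called. The related genes called, 2, numbered 10 with the bead-number block, 13 with median scaling, 4 with neqc normalization, 1 with the ordinary test, 5 with the replicate block and 1 to 3 when 1 array was left out, the 1 without WT replicate 1. 3 members turned sign when 1 array was left out: *Jun* ranged from -0.072 to 0.46 and *Egr1* from -0.14 to 0.86, both lowest without Cmah-null replicate 3, and *Atf3* from -0.18 without that array to 0.60 without WT replicate 3, with -0.043 without WT replicate 1 and -0.094 without WT replicate 2. The causes were not tested. *Nr4a1* and *Ier2* had no value under the filter on detected probes. Signals near the background, as in these 2 genes, bound no difference.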

Other observations

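The genes outside the lists whose 6 array values were most like the mean of the 8 members detected on all arrays, each centred on its own mean, were *Zfp593*, *Sirpa*, *Ccrn4l*, *Papd1* and *Dab2*. That mean on the log2 scale was -0.51, -0.25 and -0.28 in WT, against 0.037, -0.017 and 1.02 in *Cmah*-null tissue. Pearson's r over the 6 arrays was 0.999 for *Zfp593* and 0.997 for *Dab2*, and 439 of 9805 symbols compared had an r of at least 0.95. The points share the arrays, and Cmah-null replicate 3 lies far from the other 5. *Ccrn4l* encodes nocturnin, itself known as an early response gene under circadian control, and its log2 signal was 10.32, 10.52 and 10.50 in WT and 10.79, 10.68 and 11.67 in *Cmah*-null tissue. *Dab2*, an endocytic adaptor, had a log2 difference of 0.85 (SE 0.38), and *Sirpa*, a receptor of myeloid cells for CD47, one of 0.65 (SE 0.27). The genes were chosen for their likeness to the members over these arrays, so their differences follow from the choice and are given as a description.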
